A study of Mus musculus with 18 samples.

Results

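Interferon-stimulated genes were followed in mouse bone marrow derived macrophages through 24 h of dexamethasone, a synthetic glucocorticoid. The list held 43 genes and was applied by gene symbol alone. For 38 of them a probe set carried that single symbol, and all 38 passed the filter on dim genes, among 13190 genes tested in all. Isg15, Oas1a, Ifi44, Bst2 and Tap1 could not be matched to such a probe set and are not analysed here. Where a gene had several probe sets, as 15 of the 38 did, the brightest over all arrays stood for it.

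Marrow of 3 male C57BL/6 mice, aged 10 weeks, had been grown for 1 week in 10% serum and human CSF1 at 10000 U/ml, the growth factor that drives marrow cells to become macrophages, and the cells were then replated in the same medium. The 6 groups were baseline, meaning untreated cells, and cells given 100 nM dexamethasone for 1, 2, 4, 10 or 24 h, with 3 arrays in each group and 18 in all. No genotype was altered in any group, and no array of cells kept for the same time without dexamethasone was among the 18, so the drug and time in culture cannot be told apart. The labels call the arrays biological replicates and number them 1 to 3 but do not tie a number to a mouse, so p-values measure the spread between these arrays.

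Type I interferons bind a receptor made of Ifnar1 and Ifnar2, which activates Janus kinases and brings Stat2 and Irf9 into a complex that binds the interferon-stimulated response element of target promoters. Interferon gamma acts through its own receptor, and its targets are known for another element, the gamma-activated site. Macrophages grown with CSF1 are known to make a low constant amount of type I interferon, and this keeps many target genes expressed without infection.

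Values below are log2 of the array intensity, and a change of 1 is a doubling or halving of intensity. A gene is said to have risen or fallen where limma's p, adjusted over the 13190 genes of that comparison by the Benjamini-Hochberg method, was under 0.05. The glucocorticoid target Tsc22d3 rose by 1.80 at 1 h and Fkbp5 rose by 2.44 at 2 h. Replicate arrays of a group correlated with r between 0.995 and 0.997. The 8 tested macrophage genes had baseline means from 7.47 for Mertk to 13.01 for Lyz2. Of these 2 rose at 10 h, Mertk by 2.12 and Itgam by 0.39, and none fell, where 8.29% of all genes rose and 6.16% fell. At 24 h both were again higher and Fcgr1 fell by 0.31, where 7.38% of all genes rose and 5.34% fell. Csf1r, Adgre1, Cd68, Lyz2 and Cd14 were called at neither time. Of 6 tested neutrophil genes 3 fell at 10 h (S100a9, Ltf and Camp), where 6.16% of all genes fell. S100a8, Elane and Mpo were not called, with changes of -0.18, 0.02 and -0.05. The summed intensity of the 6 ran from 597 to 1004 at baseline and from 483 to 690 at 10 h. That sum mostly follows S100a8 and S100a9, with baseline means of 8.66 and 8.30. The summed intensity of 5 plasmacytoid dendritic cell markers, of a cell type that makes much interferon, ran from 377 to 396 at baseline and from 358 to 486 at 10 h. Only 3 of the 5 passed the filter, with baseline means of 8.17 for Tcf4, 5.84 for Il3ra and 4.42 for Cox6a2. The sum therefore mostly follows Tcf4, which rose by 0.36 at 24 h (limma adjusted p = 0.0415). The Gapdh control probe sets for the 3′ and 5′ ends of the transcript, a sign of RNA quality, differed by 0.06 on average at baseline and by 0.15 to 0.20 in the treated groups. The part of these in the results below was not tested. In bulk RNA, fewer cells that express a gene and less of its RNA per cell cannot be told apart.

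One feature of the replicates touched most of the list in some groups. Replicate 1 gave the lowest of the 3 values for 31 of the 38 genes at baseline, where it was lowest for 27.9% of all tested genes. It was lowest for 36 genes at 1 h, 25 at 2 h, 16 at 4 h, 33 at 10 h and 18 at 24 h. Over all tested genes the shares at these times were 27.7%, 31.5%, 34.1%, 35.4% and 33.7%. The counts at 4 h and 24 h were nearer to these shares than the others. At 4 h replicate 3 was lowest for 19 members, and at 24 h replicate 2 was lowest for 16. The mean over the 38 genes was 7.03 in baseline replicate 1, against 7.40 and 7.32 in replicates 2 and 3. At 10 h the 3 arrays gave 6.71, 7.04 and 7.06, so the replicate 1 array was low in both groups. The spread within groups was also wider than usual for these arrays, with a median pooled SD of 0.19 over the members and 0.139 over all tested genes.

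The list as a whole moved little in the first hours and part of it fell between 4 h and 10 h. At 1 h no member rose or fell, where 0.387% of all tested genes were called. Below 0 were 28 of 38 changes, with a median of -0.05, where 49.3% of all genes lay below 0. Members tended to move together within an array, so counts by sign are not separate readings. At 2 h again none was called, against 2.15% of all genes. Of the changes 31 were above 0 with a median of 0.12, and 18.4% of members lay below 0 beside 45.0% of all genes. All 3 arrays lay above baseline for 3 members, where this held for 8.26% of all genes. At both times 2 members had an unadjusted p under 0.05. At 4 h 1 member rose, Oas3, where 4.50% of all genes rose, and 0 fell, where 3.03% of all genes fell. At 10 h 11 members fell and 0 rose, where 6.16% of all genes fell and 8.29% rose. At 24 h 7 fell and 0 rose, where 5.34% of all genes fell and 7.38% rose. Counts by role below stand against these same shares, and a count of 1 in a small role is near them. The median change of the members was -0.17 at 10 h and -0.07 at 24 h, beside 0.01 over all genes at both times. The 7 genes that fell at 24 h were among the 11 of 10 h, and those comparisons share their baseline arrays. Over all 6 groups together the F test called 12 members, where it called 17.4% of all genes. These counts come from a fit with no term for the replicate number. With the number as a block more members were called at 2, 4, 10 and 24 h.

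**Figure D1:**
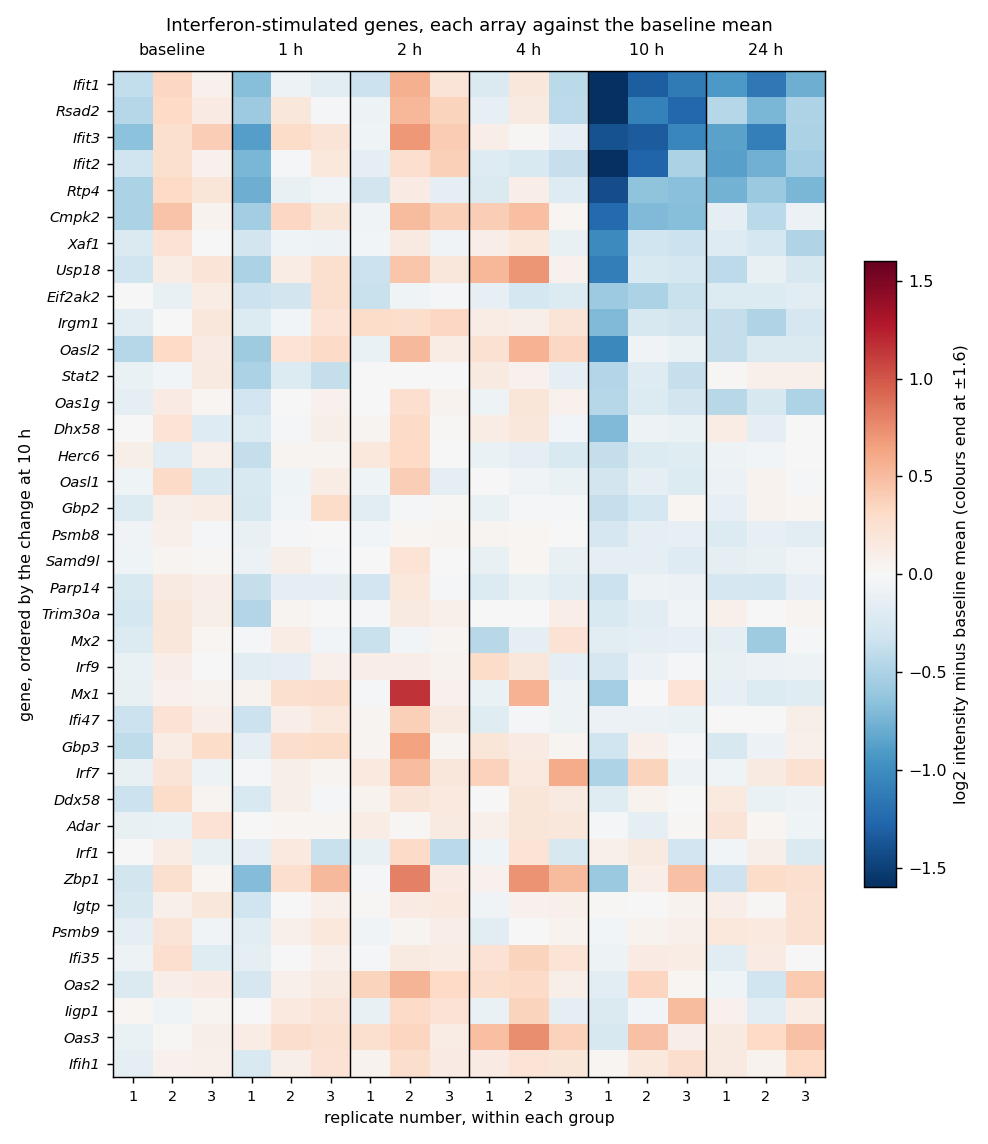
Each row is 1 of the 38 genes and each column 1 of the 18 arrays, with colour for the log2 intensity minus the gene's baseline mean; rows are ordered by the mean change at 10 h. Blue fills the upper rows at 10 h and stays paler at 24 h, the lower rows show no such block, and the replicate 1 columns at baseline, 1 h and 10 h are bluer than their neighbours.

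The promoters are shown first, since the interferon-stimulated response element is the feature for which such genes are known. RefSeq start sites on GRCm38.p6 gave a window, from 250 bases before to 50 after the start, for 29 of the 38 genes. Dhx58, Mx1, Mx2, Parp14, Iigp1, Zbp1, Usp18, Oas2 and Rtp4 had no entry. The core of the interferon-stimulated response element was searched as GAAA, any 2 bases, GAAA, on both strands, and 3.44% of all 32851 windows hold it, or 3.99% of the 27025 genes with a window. It was found for 14 of the 29 genes. Of the 10 genes with a window that fell at 10 h it was found for 6, and of the 19 others for 8. The 180 bases before the start site are given below for 5 genes that fell, written 5′ to 3′ on the strand of the gene, with the core in capitals; TTTC at either end of a run marks a match on the other strand.
Ifit1, chr19:34640709-34640888, plus strand: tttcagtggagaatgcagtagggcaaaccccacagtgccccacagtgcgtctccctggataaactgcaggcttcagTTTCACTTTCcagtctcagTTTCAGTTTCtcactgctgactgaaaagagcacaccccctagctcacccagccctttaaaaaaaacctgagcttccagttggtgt
Ifit3, chr19:34583349-34583528, plus strand: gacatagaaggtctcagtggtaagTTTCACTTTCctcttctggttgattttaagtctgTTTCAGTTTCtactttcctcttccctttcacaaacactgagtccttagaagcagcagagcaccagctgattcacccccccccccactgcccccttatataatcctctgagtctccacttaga
Rsad2, chr12:26456453-26456632, minus strand: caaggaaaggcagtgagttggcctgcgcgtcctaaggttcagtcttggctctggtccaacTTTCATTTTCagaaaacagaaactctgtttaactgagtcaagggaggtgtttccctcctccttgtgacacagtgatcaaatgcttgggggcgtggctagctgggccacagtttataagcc
Irgm1, chr11:48871421-48871600, minus strand: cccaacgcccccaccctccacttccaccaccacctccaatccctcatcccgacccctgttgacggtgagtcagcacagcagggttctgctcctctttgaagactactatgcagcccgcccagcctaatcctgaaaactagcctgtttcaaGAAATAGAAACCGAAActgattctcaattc
Oas1g, chr5:120887614-120887793, minus strand: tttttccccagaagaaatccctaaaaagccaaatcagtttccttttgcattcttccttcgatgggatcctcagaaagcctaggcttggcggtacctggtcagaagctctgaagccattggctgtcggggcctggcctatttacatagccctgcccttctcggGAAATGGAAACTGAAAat

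In Ifit1 the first bases of the matches lie 104 and 85 bases before the start site, and in Ifit3 156 and 122 before it. Rsad2 has 1 match, 120 bases before the start. In Irgm1 and Oas1g a pair of matches overlaps, which gives one longer run of capitals close to the start. The same core stands before genes of the list that did not fall. Shown for comparison are Gbp2 and Igtp, called in no comparison, and Oas3, which rose at 4 h.
Gbp2, chr3:142620483-142620662, plus strand: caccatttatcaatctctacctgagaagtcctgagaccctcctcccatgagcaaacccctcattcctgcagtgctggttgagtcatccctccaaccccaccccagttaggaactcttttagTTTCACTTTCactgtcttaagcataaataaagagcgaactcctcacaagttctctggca
Igtp, chr11:58199376-58199555, plus strand: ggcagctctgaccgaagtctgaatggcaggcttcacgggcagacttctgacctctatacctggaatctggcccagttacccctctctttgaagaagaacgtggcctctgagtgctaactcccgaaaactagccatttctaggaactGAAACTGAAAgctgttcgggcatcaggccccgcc
Oas3, chr5:120777660-120777839, minus strand: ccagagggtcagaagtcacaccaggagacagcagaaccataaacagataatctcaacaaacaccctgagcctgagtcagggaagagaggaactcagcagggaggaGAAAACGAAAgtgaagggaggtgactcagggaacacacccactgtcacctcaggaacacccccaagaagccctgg

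Each of these has 1 match, 59, 34 and 75 bases before the start of Gbp2, Igtp and Oas3. The core was therefore present in genes with and without a fall, and a match of letters is not a measured binding site. A gamma-activated site, TTCNNNGAA, was found in the windows of 7 of the 29 genes, where 8.30% of all windows and 9.55% of all genes with a window hold it; 3 of these genes fell at 10 h (Ifit2, Eif2ak2 and Psmb8) and 4 did not. A palindromic glucocorticoid response element, spelled GNACA, any 3 bases, TGTNC, was found in none of the 29 windows and in 0.475% of all windows. In Igtp and Eif2ak2, which held both of the first motifs, the matches did not overlap. Sites outside the windows were not searched.

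The IFIT proteins, which bind foreign or unusual RNA and block its translation, had a median change of -1.25 at 10 h and -0.82 at 24 h. All 3 members fell at both times. Ifit1 stood at 6.36, 7.09 and 6.83 on the baseline arrays, 6.42, 7.33 and 6.97 at 2 h, 5.16, 5.44 and 5.63 at 10 h, and 5.85, 5.62 and 5.98 at 24 h. Every array of 10 h and 24 h lay below every baseline array, and those of 2 h overlapped with baseline. Ifit1 fell by 1.35 ± 0.21 (SE, n = 3 per group) at 10 h, which left its intensity 60.9% lower (limma adjusted p = 4.91e-05), and by 0.95 ± 0.21 at 24 h (adjusted p = 0.00290).

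Ifit3 lies next to Ifit2 on the chromosome, and 3 genes separate it from Ifit1. Its values were 5.96, 6.86 and 7.01 at baseline, 6.54, 7.31 and 7.02 at 2 h, 5.21, 5.28 and 5.57 at 10 h, and 5.76, 5.52 and 6.10 at 24 h. The 10 h arrays lay below baseline without overlap, while 1 array of 24 h lay above the low baseline replicate 1. Ifit3 fell by 1.25 ± 0.26 at 10 h (limma adjusted p = 0.00128) and by 0.82 ± 0.26 at 24 h (adjusted p = 0.0383). Ifit2 was 7.38, 7.95 and 7.76 at baseline, 6.05, 6.41 and 7.19 at 10 h, and 6.83, 6.92 and 7.16 at 24 h. Its 10 h arrays were spread over more than 1 log2 unit but all lay below baseline. Ifit2 fell by 1.15 ± 0.22 at 10 h (limma adjusted p = 0.000574) and by 0.73 ± 0.22 at 24 h (adjusted p = 0.0289). Ifit3 has a close copy, Ifit3b, and the array may not separate them; this was not tested.

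**Figure D2:**
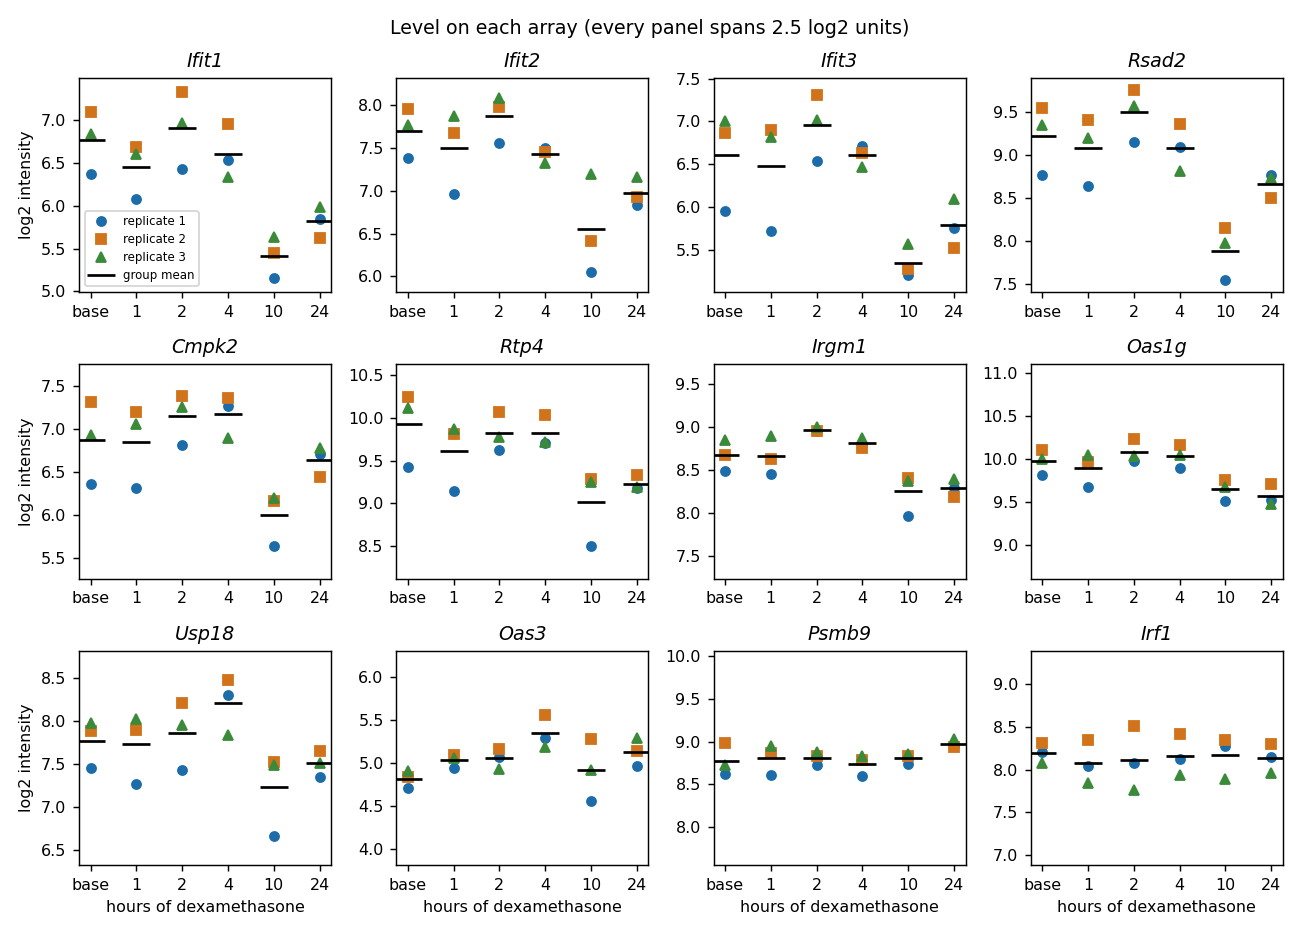
Log2 intensity of 12 genes on each array by hours of dexamethasone, with a symbol for the replicate number and a bar for the group mean of 3 arrays. Ifit1, Ifit2, Ifit3, Rsad2 and Cmpk2 drop between 4 h and 10 h. By mean Oas3 is highest at 4 h and Psmb9 at 24 h, and Irf1 stays level.

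Among the other antiviral effectors 4 of 10 tested members fell at 10 h and 1 at 24 h, where 6.16% and 5.34% of all genes fell. Rsad2, or viperin, makes a nucleotide that ends viral RNA chains, and it is the neighbour of Cmpk2, a nucleotide kinase that works with it. Rsad2 was 8.78, 9.55 and 9.36 at baseline, 9.15, 9.77 and 9.58 at 2 h, 9.09, 9.37 and 8.81 at 4 h, 7.54, 8.15 and 7.98 at 10 h, and 8.77, 8.50 and 8.73 at 24 h. The 10 h arrays lay far below all others, and the 24 h arrays lay between those and baseline, with no overlap on either side. Rsad2 fell by 1.34 ± 0.19 at 10 h (limma adjusted p = 1.6e-05). At 24 h its change was -0.56 ± 0.19 and did not pass the test (adjusted p = 0.0580). This depended on the setting. Rsad2 was called as a fall at 24 h with the probe set of largest variance (-0.75, limma adjusted p = 0.0326) or the mean of its probe sets (0.0334). It was also called with only the groups compared (0.0159) and without some single arrays, such as baseline replicate 1 (0.00761).

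Rsad2 was also the single member called from 10 h to 24 h, where it rose by 0.78 ± 0.19 (limma adjusted p = 0.0318), and where 0.993% of all genes rose and 1.17% fell. That call was lost without 10 h replicate 1 (adjusted p = 0.184), 24 h replicate 1 (0.141), 10 h replicate 3 (0.0597) or 24 h replicate 3 (0.110).

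Cmpk2 was 6.36, 7.32 and 6.93 at baseline, 7.27, 7.36 and 6.90 at 4 h, 5.63, 6.17 and 6.20 at 10 h, and 6.71, 6.44 and 6.78 at 24 h. It was below all baseline arrays at 10 h and within their range at 24 h. The gene fell by 0.87 ± 0.22 at 10 h (limma adjusted p = 0.00782), with a change of -0.23 ± 0.22 at 24 h (adjusted p = 0.578). A second, dimmer probe set of Cmpk2, with a mean of 5.26, gave -0.23 at 10 h.

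Rtp4, an interferon-inducible protein of receptor trafficking, was among the brighter members, with 9.42, 10.24 and 10.11 at baseline, 8.50, 9.29 and 9.25 at 10 h, and 9.17, 9.33 and 9.19 at 24 h. Both late groups lay below baseline without overlap. Rtp4 fell by 0.91 ± 0.20 at 10 h (limma adjusted p = 0.00183) and by 0.69 ± 0.20 at 24 h (adjusted p = 0.0184). Xaf1, which promotes cell death by opposing an inhibitor of caspases, was 8.41, 8.87 and 8.63 at baseline, 7.61, 8.32 and 8.30 at 10 h and 8.44, 8.36 and 8.16 at 24 h. The 10 h arrays lay below baseline and those of 24 h overlapped with it. Xaf1 fell by 0.56 ± 0.14 at 10 h (limma adjusted p = 0.00627) and changed by -0.32 ± 0.14 at 24 h without passing the test (adjusted p = 0.144).

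The other 6 effectors were not called against baseline. Samd9l, a restriction factor of poxviruses, changed by -0.17 at 10 h and -0.11 at 24 h. Parp14, an ADP-ribosyltransferase, changed by -0.17 and -0.23, and Trim30a, a ubiquitin ligase family protein, by -0.16 and 0.04. The GTPase genes Mx1 and Mx2 had means of 4.22 and 4.20 over the 18 arrays. These were not far above 3.86, the control level set by probe sets with no mouse target. Mx1 changed by -0.11 at 10 h and Mx2 by -0.15. Ifi35 ran against the group at 10 h, with 0.06.

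The OAS family, enzymes that turn double-stranded RNA into a signal for RNA decay, was split. Oas1g fell, Oas3 rose early, and Oas2, Oasl1 and Oasl2 were not called against baseline. Oas1g was 9.81, 10.10 and 10.00 at baseline, 9.51, 9.76 and 9.68 at 10 h, and 9.52, 9.71 and 9.47 at 24 h. All late arrays lay below all baseline arrays. Its falls were shallow but close in size, 0.32 ± 0.09 at 10 h and 0.40 ± 0.09 at 24 h on the log2 scale (limma adjusted p = 0.0220 and 0.00437). Of the 11 genes that fell at 10 h, Oas1g alone had a lower mean at 24 h than at 10 h, and that step was -0.08 ± 0.09 (adjusted p = 0.811).

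Oas3 went the other way. It was 4.70, 4.83 and 4.91 at baseline, 4.94, 5.09 and 5.06 at 1 h, 5.06, 5.15 and 4.93 at 2 h, 5.29, 5.56 and 5.18 at 4 h, 4.56, 5.28 and 4.92 at 10 h, and 4.96, 5.13 and 5.28 at 24 h. The arrays of 1, 2, 4 and 24 h all lay above all baseline arrays, while those of 10 h spread across them. At 4 h Oas3 rose by 0.53 ± 0.16 (limma adjusted p = 0.0430), the single member called upward against baseline. For 4 h and baseline all 3 pairs of same-numbered arrays had deviations correlated over 0.1, and with the replicate number as a block Ifi35 (0.27) and Usp18 (0.44) rose too (adjusted p = 0.0366 and 0.0396). The Oas3 call did not hold when any of 9 single arrays was left out, which are baseline replicates 1, 2 and 3 (adjusted p = 0.129, 0.0957 and 0.0625), 4 h replicates 1 and 2 (0.0857 and 0.226), 1 h replicates 1, 2 and 3 (0.0503, 0.0521 and 0.0513) and 24 h replicate 2 (0.0505). Without baseline replicate 2 Ifi35 was called in its place, at 0.40 (0.0152). At 24 h its change was 0.31 ± 0.16 (adjusted p = 0.235), the highest of the list. All 3 arrays lay above baseline at 24 h for Oas3 alone among the members, where this held for 15.3% of all genes.

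Oas2, the neighbour of Oas3, changed by 0.40 ± 0.17 at 2 h with all 3 arrays above baseline (limma adjusted p = 0.420), by 0.07 at 10 h and by 0.01 at 24 h. Oasl1, which holds back translation of Irf7, was dim at a mean of 4.17 and changed by -0.22 at 10 h and -0.02 at 24 h. Oasl2 changed by 0.38 at 4 h and by -0.40 at 10 h, neither of which passed against baseline.

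In the pathway that attaches the ubiquitin-like protein ISG15 to other proteins, 2 members were tested and neither was called against baseline. Usp18 removes ISG15 and also damps signalling at the type I receptor. It was 7.45, 7.88 and 7.98 at baseline, 7.43, 8.21 and 7.95 at 2 h, 8.30, 8.48 and 7.84 at 4 h, 6.66, 7.52 and 7.49 at 10 h, and 7.35, 7.65 and 7.51 at 24 h. The 4 h arrays lay above all 10 h arrays and overlapped with baseline, as did the 10 h arrays, where replicate 1 was the lowest. Usp18 fell by 0.98 ± 0.22 from 4 h to 10 h (limma adjusted p = 0.00846), while its changes against baseline were 0.44 ± 0.22 at 4 h (adjusted p = 0.298) and -0.55 ± 0.22 at 10 h (adjusted p = 0.103). Herc6, the mouse ligase for ISG15, changed by -0.26 at 10 h and -0.04 at 24 h.

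Of the 6 immunity-related and guanylate-binding GTPases, which attack the vacuoles of intracellular microbes, 1 fell. Irgm1, a regulator of that system, was 8.48, 8.67 and 8.85 at baseline, 8.97 ± 0.03 (mean and SD, n = 3) at 2 h, 7.96, 8.41 and 8.37 at 10 h, and 8.28, 8.19 and 8.39 at 24 h. The 2 h arrays lay above all baseline arrays and the late arrays lay below them. Irgm1 fell by 0.42 ± 0.11 at 10 h (limma adjusted p = 0.00865) and by 0.38 ± 0.11 at 24 h (adjusted p = 0.0196), and its change of 0.30 ± 0.11 at 2 h did not pass (adjusted p = 0.247). The other 5 were not called in any comparison. Igtp changed by 0.03 at 10 h and 0.12 at 24 h, Ifi47 by -0.10 and 0.03, Gbp2 by -0.20 and -0.01, and Gbp3 by -0.09 at both times. Iigp1, with a mean of 3.46, was the one member under the control level of 3.86, so its changes cannot be read.

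Among 6 sensors and editors of nucleic acids 1 fell, at 10 h. Eif2ak2, the kinase PKR that halts translation on double-stranded RNA, was 7.58, 7.45 and 7.69 at baseline, 7.44, 7.29 and 7.35 at 4 h, 6.99, 7.07 and 7.22 at 10 h, and 7.35, 7.35 and 7.41 at 24 h. It lay below baseline without overlap at 4, 10 and 24 h. Eif2ak2 fell by 0.48 ± 0.12 at 10 h (limma adjusted p = 0.00765), and its changes of -0.21 at 4 h and -0.20 at 24 h did not pass (adjusted p = 0.383 and 0.320). The RNA sensors Ifih1, Ddx58 and Dhx58 were not called. Ifih1, known as MDA5, was above its baseline mean at all 5 times, with 0.16 ± 0.11 at 10 h and 0.17 ± 0.11 at 24 h. Ddx58, or RIG-I, changed by -0.05 and -0.01, and Dhx58, which tunes both, by -0.30 and -0.01. The editing enzyme Adar changed by -0.05 and 0.05 at those times. Zbp1, a sensor of Z-form nucleic acid, had the widest spread of the list, with a pooled SD of 0.45, and changed by -0.01 and 0.07.

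The immunoproteasome subunits Psmb8 and Psmb9, which cut peptides for presentation, lie 1 gene apart. Psmb8 fell and Psmb9 was not called. Psmb8 was 10.51, 10.64 and 10.54 at baseline, 10.29, 10.42 and 10.44 at 10 h, and 10.34, 10.43 and 10.38 at 24 h. Both late groups lay below baseline without overlap, by a small step. Psmb8 fell by 0.18 ± 0.05 at 10 h and again by 0.18 ± 0.05 at 24 h (limma adjusted p = 0.0129 and 0.0146). Another probe set of Psmb8, at a mean of 3.55 and so under the control level, gave 0.07 and 0.02 at those times. Psmb9 was 8.63, 8.98 and 8.73 at baseline and 8.95, 8.93 and 9.03 at 24 h. Its 24 h arrays overlapped with baseline, with a change of 0.03 ± 0.09 at 10 h and 0.19 ± 0.09 at 24 h (adjusted p = 0.173). The difference between the subunits was not tested.

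None of the 4 transcription factors of the list rose or fell at any time in the main fit. Irf1, a factor induced by both types of interferon, kept between -0.12 and -0.03 of its baseline mean at all 5 times. Irf7, which amplifies production of type I interferon, changed by 0.37 ± 0.18 at 4 h (limma adjusted p = 0.259), -0.07 at 10 h and 0.11 at 24 h. Irf9 changed by -0.13 and -0.10 at 10 h and 24 h. Stat2, its partner, was 5.24, 5.31 and 5.50 at baseline, 4.84, 5.13 and 4.98 at 1 h, 5.35, 5.34 and 5.34 at 2 h, 4.89, 5.15 and 4.98 at 10 h, and 5.37, 5.43 and 5.43 at 24 h. The 1 h and 10 h arrays lay below all baseline arrays and the 2 h and 24 h arrays lay within the baseline range. In the main fit Stat2 was called by the F test alone. Its changes of -0.37 ± 0.13 at 1 h and -0.35 ± 0.13 at 10 h did not pass (adjusted p = 0.733 and 0.0841). The result at 10 h depended on the setting. Stat2 was called as a fall there with a filter at the 60th percentile (limma adjusted p = 0.0487), no intensity trend (0.0232) or a second quantile normalization (0.0415).

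How firm the calls against baseline are depends on single arrays. At 10 h all 3 arrays lay below all baseline arrays for 14 members, where this held for 11.6% of all genes. The count of 11 became 6 without 10 h replicate 1, where Oas1g, Cmpk2, Irgm1, Xaf1 and Psmb8 were lost (limma adjusted p from 0.0598 to 0.114). It became 7 without baseline replicate 2, where Oas1g, Cmpk2, Xaf1 and Psmb8 were lost (0.0527 to 0.120), and Oas1g and Irgm1 were lost without baseline replicate 3 (0.0706 and 0.0713). Ifit1, Ifit2, Ifit3, Rsad2 and Rtp4 were called at 10 h under each alternative tried.

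At 24 h all arrays lay below baseline for 9 members, where this held for 12.6% of all genes, and the calls were less stable. The count of 7 falls became 2 without 24 h replicate 1, 2 without baseline replicate 2, 3 without baseline replicate 3 and 4 without 24 h replicate 2. Without baseline replicate 2 Psmb9 also rose, by 0.29 (limma adjusted p = 0.0342). Ifit2, Ifit3 and Irgm1 were lost in each of these 4 cases (limma adjusted p from 0.0538 to 0.196 over all genes lost), Rtp4 and Psmb8 in some of them, and Rtp4 also without 24 h replicate 3 (0.0625). Ifit1 and Oas1g were called at 24 h whichever single array was left out. With all arrays of 1 replicate number left out, Ifit1 was lost without replicate 2 (limma adjusted p = 0.0714) and Oas1g without replicate 3 (0.118). Falls were also gained at 24 h, of Rsad2 and Parp14 without baseline replicate 1 (0.00761 and 0.0320). Without 10 h replicate 1, Rsad2 and Xaf1 were gained (0.0436 and 0.0364).

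**Figure D3:**
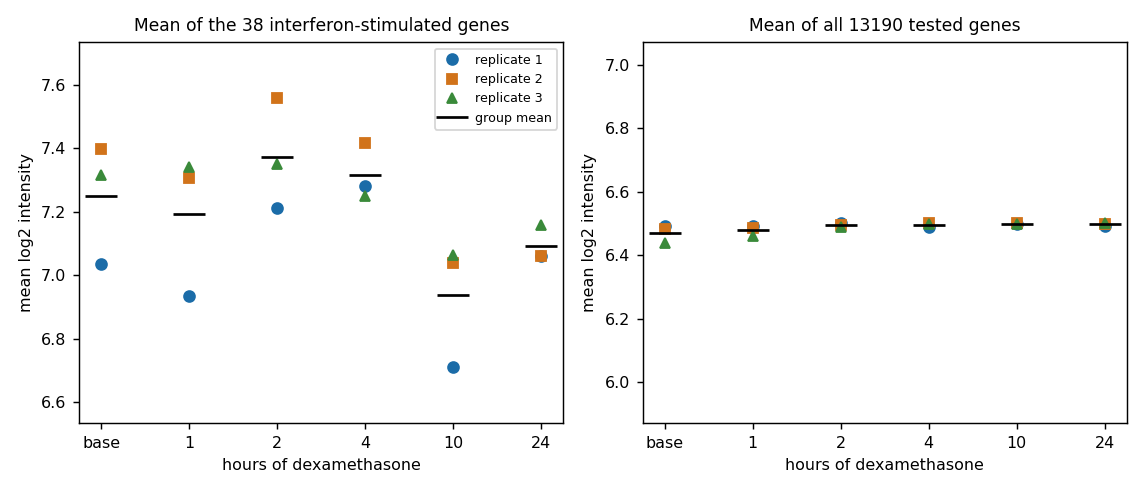
Mean log2 intensity of the 38 genes (left) and of all 13190 tested genes (right) on each array by hours of dexamethasone, with bars for group means and axes of the same span. The mean of the list went from 7.25 at baseline to 7.37 at 2 h, 6.94 at 10 h and 7.09 at 24 h. Replicate 1 was low at baseline, 1 h, 2 h and 10 h. The mean of all genes stayed level, which the normalization largely fixes in advance by giving all arrays 1 distribution.

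The timing of the fall was examined between successive times, which share 1 group with the next step. From 1 h to 2 h no member was called, where 1.12% of all genes were, and 35 of 38 changes were above 0 with a median of 0.18. Below 0 were 7.89% of members and 44.5% of all genes. Same-numbered arrays of these groups were also correlated over 0.1 in all 3 pairs, and with the number as a block 1 member rose. From 2 h to 4 h again none was called, against 1.90% of all genes. From 4 h to 10 h 11 members fell and 0 rose, where 1.83% of all genes fell and 2.35% rose. Of 38 changes 34 were below 0, where 49.5% of all genes lay below 0. All 10 h arrays lay below all 4 h arrays for 20 members, where this held for 9.20% of all genes. The genes that fell in this step were those of the fall at 10 h without Eif2ak2 and with Usp18. Both comparisons use the same 10 h arrays. The steepest were Ifit3, which fell by 1.25 ± 0.26, Rsad2, which fell by 1.20 ± 0.19, Ifit1, which fell by 1.19 ± 0.21, and Cmpk2, which fell by 1.18 ± 0.22 (limma adjusted p = 0.00448, 0.000323, 0.00108 and 0.00187). For Cmpk2 the 4 h mean was 0.30 above baseline, so this step was larger than its change against baseline.

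The count of 11 between 4 h and 10 h became 5 without 10 h replicate 1 and 6 without 4 h replicate 2. Ifit2, Oas1g, Usp18, Rtp4 and Xaf1 were lost in both cases and Psmb8 in the first (limma adjusted p from 0.0606 to 0.155). Ifit2 was also lost without 4 h replicate 1 (0.0905) or 10 h replicate 2 (0.0772), Xaf1 and Psmb8 without 4 h replicate 1 (0.0502 and 0.0678), and Oas1g without 4 h replicate 3 (0.0553). From 10 h to 24 h 30 of 38 changes were above 0 with a median of 0.12, and apart from Rsad2 none passed. Below 0 were 21.1% of members and 50.2% of all genes. All 24 h arrays lay above all 10 h arrays for 9 members, where this held for 8.01% of all genes, and these included Cmpk2 at 0.64 ± 0.22 (adjusted p = 0.165), Stat2 at 0.40 ± 0.13 (0.128) and Eif2ak2 at 0.28 ± 0.12 (0.317).

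A contrast of late with early dexamethasone, the mean of the 10 h and 24 h groups minus the mean of the 1, 2 and 4 h groups, holds no baseline array. In it 13 members fell and 0 rose, where 7.69% of all genes fell and 9.20% rose. Of 38 changes 34 were below 0 with a median of -0.16, where 49.3% of all genes lay below 0. The IFIT genes fell by 1.11 ± 0.17 for Ifit3, 1.04 ± 0.14 for Ifit1 and 0.84 ± 0.14 for Ifit2 (limma adjusted p = 2.81e-05, 3.92e-06 and 0.000119). Rsad2 fell by 0.95 ± 0.12, Cmpk2 by 0.74 ± 0.14 and Irgm1 by 0.54 ± 0.07 (adjusted p = 3.92e-06, 0.000527 and 2.82e-06). In Ifit1, Irgm1 and Psmb8 all 6 late arrays lay below all 9 early ones, where this held for 1.67% of all genes.

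Of the 13 genes 10 had fallen at 10 h against baseline, a comparison that uses the same 10 h arrays as this contrast. The 3 others were Usp18, Oasl2 and Samd9l. Oasl2 was 6.14, 6.94 and 7.03 at 1 h, 6.61, 7.23 and 6.84 at 2 h, 6.96, 7.28 and 7.05 at 4 h, 5.69, 6.66 and 6.61 at 10 h, and 6.34, 6.49 and 6.48 at 24 h. Replicate 1 was its lowest array in all of these groups, and early and late arrays overlapped. Oasl2 fell by 0.52 ± 0.15 and Usp18 fell by 0.57 ± 0.14 (limma adjusted p = 0.0184 and 0.00587). Samd9l was 9.51, 9.71 and 9.58 at 1 h, 9.62, 9.83 and 9.60 at 2 h, 9.49, 9.64 and 9.49 at 4 h, 9.45, 9.47 and 9.40 at 10 h, and 9.45, 9.49 and 9.55 at 24 h. Its late arrays overlapped with the lower early ones, and the fall of 0.14 ± 0.04 was the smallest called (limma adjusted p = 0.0201). Oasl2 was lost without 10 h replicate 1 (adjusted p = 0.0794) and Samd9l without 24 h replicate 1 (0.0598) or 10 h replicate 3 (0.0522). Eif2ak2, whose 4 h arrays already lay below baseline, was not called here, at -0.18 ± 0.08 (adjusted p = 0.129).

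**Figure D4:**
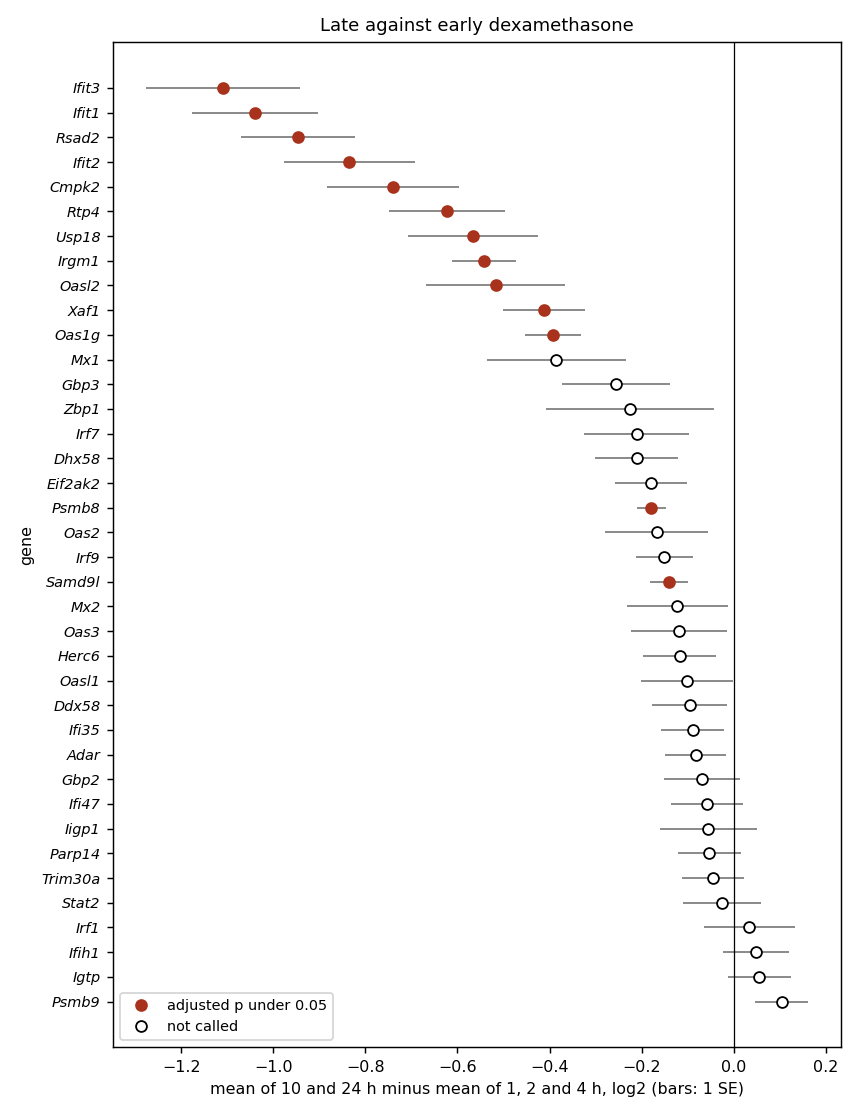
Difference of each of the 38 genes between late (10 and 24 h) and early (1, 2 and 4 h) dexamethasone in log2 units, with bars of 1 standard error and filled points for adjusted p under 0.05. The 13 filled points run from -1.11 for Ifit3 to -0.14 for Samd9l, and the 4 genes right of 0 (Psmb9, Igtp, Ifih1 and Irf1) are open.

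Members that went against the group can be counted by their mean alone. At 10 h 7 of 38 lay above baseline (Ifih1, Oas3, Iigp1, Oas2, Ifi35, Psmb9 and Igtp), with changes between 0.03 and 0.16 and none called. Below baseline at 10 h were 81.6% of members and 47.9% of all genes. At 24 h 12 lay above, led by Oas3, Psmb9, Ifih1, Igtp at 0.12 and Irf7 at 0.11. Below baseline at 24 h were 68.4% of members and 47.3% of all genes. Oas3, Oas2, Psmb9, Ifih1, Igtp and Iigp1 were above baseline at both times, though Iigp1 was under the control level and Oas2 at 24 h was within 0.01 of baseline. In all, 22 of the 38 genes were called in no comparison.

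The wider pathway was read through lists chosen by function. Of 16 interferon genes 10 had a single-symbol probe set, and all 10 had baseline means under the control level of 3.86, Ifnb1, for interferon beta, at 3.63 among them. The filter passed 4 of them and none was called at any time, but changes at this level cannot be read. Of 18 tested receptor and JAK-STAT genes 4 rose and 1 fell at 10 h, where 8.29% of all genes rose and 6.16% fell. At 24 h 2 rose and 1 fell, where 7.38% of all genes rose and 5.34% fell. The type I receptor chains Ifnar1 and Ifnar2 were bright, with baseline means of 8.84 and 10.2, and their changes at 10 h were 0.17 ± 0.07 and -0.07 ± 0.06 (limma adjusted p = 0.133 and 0.467).

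The gamma receptor chain Ifngr1 was 9.06 on average at baseline and rose by 0.60 ± 0.06 at 10 h and by 0.50 ± 0.06 at 24 h. Irf2, which competes with Irf1 for its sites, rose by 0.63 ± 0.09 at 2 h, by 0.75 ± 0.09 at 10 h and by 0.75 ± 0.09 at 24 h. Jak2 and Stat3 rose by 0.33 ± 0.09 and 0.26 ± 0.08 at 10 h, and the phosphatase Ptpn6 fell by 0.22 ± 0.05 at 10 h and by 0.17 ± 0.05 at 24 h. At 2 h 1 gene of this list rose, Irf2, and 1 fell, Irf8, where 2.15% of all genes were called in either direction. No member of the main list was called at 2 h without a replicate block. Socs1, an inhibitor of Janus kinases, had a baseline mean of 3.37, under the control level.

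Of 16 tested sensors and adaptors upstream of interferon production, 4 rose and 1 fell at 10 h, and 5 rose and 0 fell at 24 h. Of all genes 8.29% rose and 6.16% fell at 10 h, and 7.38% rose and 5.34% fell at 24 h. The endosomal RNA receptors Tlr7 and Tlr8 rose by 1.32 ± 0.07 and 1.95 ± 0.16 at 10 h and by 1.24 ± 0.07 and 1.53 ± 0.16 at 24 h. Both had risen by 2 h, by 0.72 ± 0.07 and 0.80 ± 0.16. The kinase Tbk1 rose by 0.36 ± 0.05 at 10 h and by 0.29 ± 0.05 at 24 h, and the adaptor Mavs by 0.40 ± 0.11 and 0.39 ± 0.11. Ikbke, a kinase related to Tbk1, rose by 0.36 ± 0.12 at 24 h, and Tank, which binds both kinases, fell by 0.21 ± 0.06 at 10 h.

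A separate list of 46 tested interferon-stimulated genes outside the main list held calls both ways. In it 7 rose and 4 fell at 10 h, where 8.29% and 6.16% of all genes did, and 8 rose and 5 fell at 24 h, where 7.38% and 5.34% did. Its medians were -0.02 and 0.01. Ms4a4c, a membrane protein gene, was 5.75 on average at baseline and rose by 1.13 ± 0.19 at 10 h and by 1.71 ± 0.19 at 24 h. The guanylate-binding protein gene Gbp7 rose by 0.90 ± 0.13 and 1.29 ± 0.13, and Ifi204, a DNA sensor, by 0.74 ± 0.16 and 0.76 ± 0.16. Slfn2, a growth regulator, rose by 0.60 ± 0.05 at 10 h and had risen by 0.29 ± 0.05 at 1 h. Ifi27l2a, a mitochondrial protein gene, rose by 0.69 ± 0.12 at 24 h. The checkpoint ligand Cd274, or PD-L1, fell by 0.77 ± 0.13 at 10 h and by 0.94 ± 0.13 at 24 h. Tgtp1, a GTPase, fell by 0.91 ± 0.26 at 10 h, Tor3a, an endoplasmic reticulum ATPase, by 0.51 ± 0.09 and Casp1, the inflammasome protease, by 0.23 ± 0.06. At 24 h Trex1, a nuclease that removes stray DNA, fell by 0.41 ± 0.10 and Trim25, a ligase that activates RIG-I, fell by 0.33 ± 0.07.

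Of 13 class I presentation genes 1 rose and 1 fell at 10 h, where 8.29% and 6.16% of all genes did, and 1 rose and 2 fell at 24 h, where 7.38% and 5.34% did. The proteasome activator subunit Psme2 fell by 0.26 ± 0.05 and 0.30 ± 0.05, and its partner Psme1 fell by 0.20 ± 0.05 at 24 h. H2-M3, a class I molecule, rose by 0.22 ± 0.07 at 24 h. Pdia3, a chaperone of peptide loading, rose by 0.44 ± 0.14 at 10 h from a baseline mean of 3.98, close to the control level. The limma adjusted p-values of all genes called in these lists lay under 0.05 by definition, and differences between the lists were not tested.

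**Figure D5:**
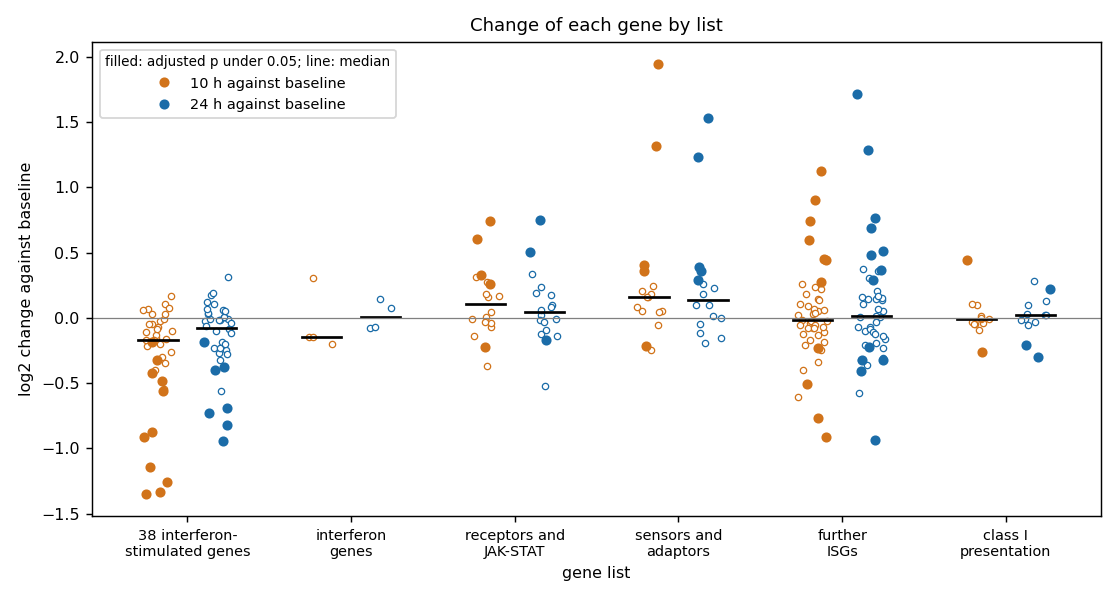
Log2 change at 10 h (orange) and 24 h (blue) of each tested gene in the list of 38 and in 5 lists of the wider pathway, with filled points for adjusted p under 0.05 and a line at the median. Filled points of the first list lie below 0, while filled points of the receptor, sensor and further interferon-stimulated lists lie on both sides, up to 1.95 for Tlr8 at 10 h.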

How the data were processed

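Each array has 1 value per probe set in the authors' deposited table. These are intensities on a linear scale; per the submitters' processing notes, RMA and the affy package were used, with versions not given in the sources used here. RMA makes the arrays share 1 distribution, so a shift common to most genes cannot be measured. Intensities ran from 5.37 to 15224, and log2 of the deposited values was taken for every test; the number of arrays, with no read depth, limits the precision. The scale was read from the values.

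Of 45141 probe sets 28898 carried 1 gene symbol. A run of 211 probe sets falls by even steps in baseline replicate 1 and was left out; it held 0 members. The filter asked for 3 or more arrays at or above their own 40th percentile. Tests used limma 3.58.1 in R 4.3.3 (lmFit over 18 arrays, 1 mean per group, eBayes with an intensity trend), two-sided, adjusted by the Benjamini-Hochberg method within each comparison. Errors are standard errors of the fit. The fit was tested on simulated data with noise drawn independently for each array, so that test does not cover the correlation of same-numbered arrays.

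Members, gene lists and tests were chosen with earlier results of these data known. Named with values are members called in a comparison, members of the same role, members against the group, and up to 4 called genes per companion list and direction at 10 h and 24 h; a few others were chosen after their values were seen. Alternatives were another choice of probe set, filter, normalization, trend or sample set, a replicate block, and leaving out each array or replicate number.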

Additional observations from a re-analysis of the deposited data

Results flagged for a closer look

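For 13 genes the level after 10 h and 24 h of dexamethasone differed from that after 1, 2 and 4 h by the test of that difference. The differences, late minus early on the log2 scale, were -1.04 for Ifit1, -0.84 for Ifit2, -1.11 for Ifit3, -0.95 for Rsad2, -0.39 for Oas1g, -0.52 for Oasl2, -0.57 for Usp18, -0.74 for Cmpk2, -0.54 for Irgm1, -0.62 for Rtp4, -0.14 for Samd9l, -0.41 for Xaf1 and -0.18 for Psmb8. For Rsad2 the effects of 10 h and 24 h also differed from each other, by 0.78, with the higher level at 24 h. Groups of 3 arrays were too small to look for a single array far from the others.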

How the results depend on the processing

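No call of a member changed sign except Psmb8, which gave 0.074 at 10 h and 0.017 at 24 h when the probe set of largest variance, a dim one, stood for the gene. Over 44 calls, 823 of 924 values with an array or a replicate number left out and 444 of 484 others kept direction and call. Of the 13 late against early calls 10 held under every alternative, as did 5 of 11 at 10 h. From 4 h to 10 h 4 of 11 calls held under every alternative, and at 24 h 0 of 7 did. Leaving out 1 array, or all arrays of 1 replicate number (an alternative added after seeing the data), the count of members called in either direction ran from 6 to 12 at 10 h, 1 to 10 at 24 h, 0 to 1 at 4 h, 5 to 13 from 4 h to 10 h and 0 to 1 from 10 h to 24 h. The count at 24 h was 4 with the mean of all probe sets and 2 without the intensity trend; from 4 h to 10 h these gave 7 and 5. At 4 h it was 0 with the probe set of largest variance, with no filter, with a second quantile normalization and with only the groups compared. From 10 h to 24 h it was 0 with the probe set of largest variance, the mean of probe sets, no trend or the stepped run kept. The cause was not tested.

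A replicate block gave counts of 1 at 2 h, 3 at 4 h, 11 at 24 h, 1 from 1 h to 2 h and 2 from 10 h to 24 h, and took none of the main calls away. It added Irgm1 rising at 2 h (adjusted p = 0.0225) and Ifi35 and Usp18 rising at 4 h. It added falls of Usp18, Samd9l and Oasl2 at 10 h (0.00453, 0.0198 and 0.0404), and at 24 h falls of Rsad2, Parp14 and Xaf1 (0.00152, 0.0200 and 0.0365) and a rise of Psmb9 (0.0428). Late against early it added falls of Mx1 and Eif2ak2 (0.0234 and 0.0475). Deviations of arrays with the same number correlated between 0.02 and 0.29, over 0.1 in 35 of 45 pairs of arrays. Arrays with different numbers correlated between -0.23 and 0.08, over 0.1 in 0 of 90 pairs. Of the 45 checks, 44 correlated best with their own number. Not all same-numbered pairs were over 0.1, and the main fit did not treat the numbers as pairs. In some pairs of groups all were, baseline with 4 h and 1 h with 2 h among them. Same-numbered arrays thus shared part of their spread, which the standard errors of the main fit do not take into account. Precision is limited by 3 arrays a group and, for Iigp1, by signal at the control level.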

Other observations

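Other probe sets of the same genes gave a second reading. Rsad2 has 2 further probe sets, with means of 6.72 and 6.94, and their changes of -1.40 and -1.58 at 10 h and -0.69 and -0.75 at 24 h lay beside -1.34 and -0.56 for the brightest. For Psmb9 a second probe set with a mean of 7.78 gave 0.14 at 10 h and 0.10 at 24 h. For Gbp2 one with a mean of 5.92 gave -0.01 and 0.28, beside -0.20 and -0.01. A second probe set of Stat2, at a mean of 4.68, gave 0.11 at 1 h and 0.01 at 10 h, where the brightest gave -0.37 and -0.35.

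The brightest members were Psmb8, Trim30a and Oas1g, with means of 10.50, 10.08 and 9.87 over the 18 arrays; levels of different probe sets are not a comparison of transcript amounts. Of the 38 genes 25 had a mean above baseline at 2 h or 4 h and below it at 10 h. Of the 11 that fell at 10 h, 9 had a mean above baseline at 2 h, all but Rtp4 and Eif2ak2.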
